A study of Homo sapiens with 12 samples.

Results

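K562 is a line grown from the blast crisis of a chronic myelogenous leukemia, and it carries the BCR-ABL1 fusion and no functional p53. The comparison described here took all 8 K562 libraries of the 12 in the series, 4 that received siUSP15, a SMARTpool of siRNAs to USP15, and 4 that received siCtrl, a non-targeting pool, with RNA taken at 72 h. Both groups were the same parental line with the same transfection reagent, and each siRNA arm was 1 pool. The members were chosen by their labels: replicates 1 and 2 of each group form set 1 and replicates 3 and 4 form set 2, and no value was used to choose them. The labels do not say what a set is, nor that replicates were separate cultures, so a p-value here speaks of the spread among these libraries, which could be technical. The first principal component held 64.4% of the variance and separated the sets, and the second held 13.4% and separated siUSP15 from siCtrl within each set. The siRNAs are therefore compared inside a set, and the set is a term of the model.

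The study asked how loss of USP15, a deubiquitinase that removes ubiquitin from receptor and SMAD complexes among others, affects leukemia cells and their response to genotoxic stress. Stress responses are transcription programs that a cell switches on when proteins misfold, amino acids run short, DNA breaks or oxygen falls. In the integrated stress response, kinases that phosphorylate eIF2α slow translation in general but favor translation of ATF4, which drives genes of amino acid supply and, with DDIT3 (CHOP) and TRIB3, of cell death. In the unfolded protein response, the sensors PERK, IRE1 and ATF6 of the endoplasmic reticulum (ER) raise its chaperones, and p53 raises growth arrest and death genes after DNA damage. Of 458 genes in 12 lists of such programs, 405 had enough counts to be tested, among 13731 genes in all. The lists were chosen with earlier results of these data known. Their shares beside those of all genes are therefore descriptions, and no list was tested as a whole.

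USP15 itself was lower in each siUSP15 library than in any siCtrl library. USP15 (ENSG00000135655, chromosome 12 of hg38, 62260338 to 62417431) stood at 269 and 275 CPM with siCtrl against 116 and 134 with siUSP15 in set 1, and 343 and 330 against 191 and 197 in set 2, where CPM is a count relative to the library total, scaled by TMM for library composition. The groups did not overlap in either set (log2 fold change -0.96, standard error 0.0649, adjusted p = 4.67e-05, from edgeR's quasi-likelihood test with the sets as a block and Benjamini-Hochberg adjustment, as are all adjusted p below). In an exact permutation test with libraries exchanged within sets, 2-sided, p was 0.0556, the smallest that 36 arrangements allow. The log2 fold change was -1.11 in set 1 and -0.79 in set 2, and this difference between sets passed the test of the interaction of set and siRNA (adjusted p = 0.0128 from edgeR). Of the proteins that the study ties to USP15, TAF15 (0.01), MCM5 (0.06) and CHMP4B (-0.05) did not pass as RNA. The paralog USP4 fell by 0.25, a call that was lost without siCtrl replicate 2 or siUSP15 replicate 1, and the log2 fold change of USP11 was 0.0022 (adjusted p = 0.983).

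Among the 405 stress genes, those lower with siUSP15 outnumbered those higher. Of them, 33 rose and 74 fell at an adjusted p under 0.05, or 8.15% and 18.3%, where 6.88% of all genes tested rose and 8.9% fell (15.8% in either direction). All 107 had the same sign in each set fitted alone, and among all 2167 genes called 2155 did. A call with the sets as a block favors changes alike in both sets, so this agreement follows largely from the calling. Of all 405 stress genes tested, 64.9% had the same sign in both sets, against 60.3% of all genes tested. In 145 stress genes (35.8%) both siUSP15 libraries lay on the same side of both siCtrl libraries in each set, 48 higher and 97 lower, against 25.6% of all genes tested (12% higher and 13.6% lower). The changes were small: 2 of the 107 were past an absolute log2 fold change of 1. In each list below, members were named first among calls whose groups were apart in each set. That they are apart therefore follows from the choice. With the replicate numbers as a block 62 of the stress calls were kept. With siCtrl replicate 2 left out 36 stress genes passed, with siCtrl replicate 1 left out 53 and with siUSP15 replicate 1 left out 51. Among all 2167 genes called, 1016 were kept with that block and 1621 were lost without siCtrl replicate 2. Counts kept or lost per list below are to be read beside these. Without a block 0 genes passed in edgeR, 1447 genes and 65 stress genes had an unadjusted p under 0.05, and the lowest adjusted p was 0.183.

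**Figure D1:**
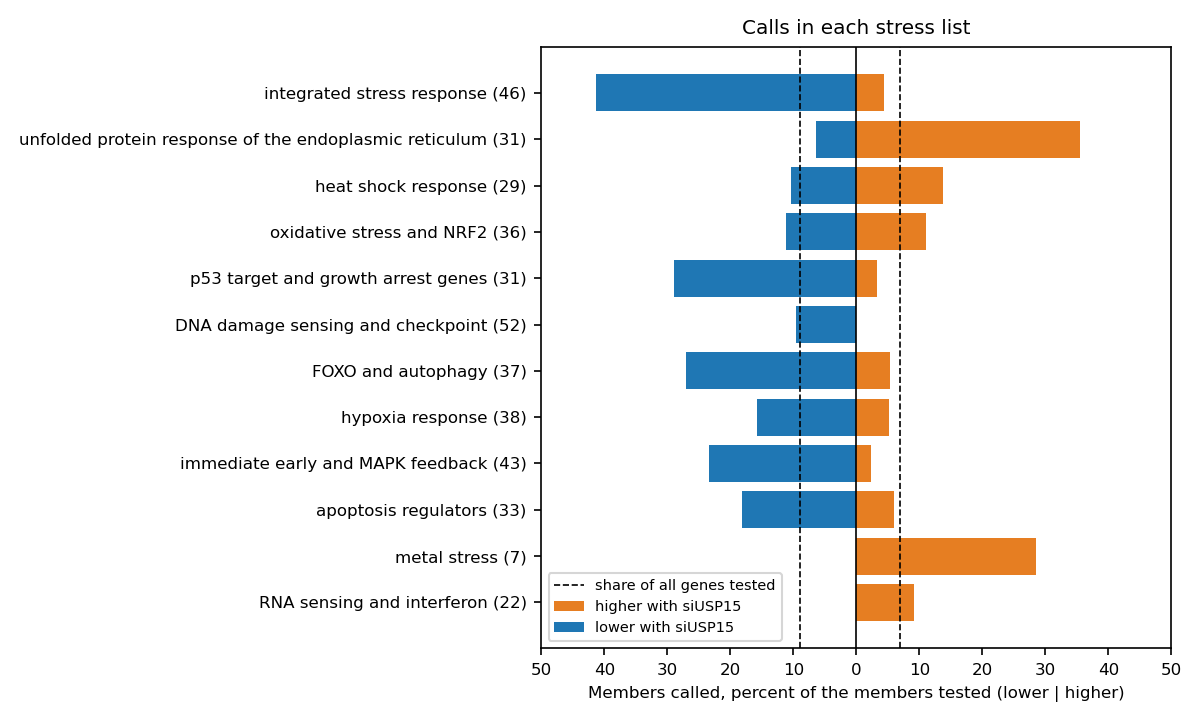
Share of the tested members of each stress list that passed an adjusted p under 0.05 in edgeR with the sets as a block, lower with siUSP15 to the left and higher to the right, in percent, with the number tested in parentheses. Dashed lines mark the shares over all 13731 genes (8.9% lower, 6.88% higher). The bars that reach farthest are integrated stress response genes lower (41.3%) and unfolded protein response genes higher (35.5%). The lists were chosen with earlier results of these data known.

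Of the 46 integrated stress response genes tested, 19 fell, 2 rose and 25 did not pass (41.3% lower, against 8.9% of all genes), and 35 had a log2 fold change below 0, with a median of -0.11 where the median of all genes tested was 0.001. TRIB3, a pseudokinase that ATF4 induces and that restrains it, stood at 105 and 102 CPM with siCtrl against 81.1 and 79.7 with siUSP15 in set 1, and 97.2 and 97.6 against 85.1 and 83.2 in set 2 (log2 fold change -0.29, standard error 0.0389, adjusted p = 0.0022). Both siUSP15 libraries were below both siCtrl libraries in each set, and this was so for all but 1 of the 19. Among all 2167 genes called, 1921 had no overlap in either set. SESN2, an inhibitor of mTORC1 signaling when leucine is low, went from 64.7 and 62.6 CPM with siCtrl to 46.1 and 43.8 with siUSP15 in set 1 and from 70.6 and 76.5 to 61.9 and 60.7 in set 2 (log2 fold change -0.38, standard error 0.0533, adjusted p = 0.00258). DDIT3, the transcription factor CHOP, went from 48.8 and 49.5 CPM with siCtrl to 32.5 and 31.7 with siUSP15 in set 1 and from 41.6 and 42.2 to 36.2 and 34.2 in set 2 (log2 fold change -0.44, standard error 0.0663, adjusted p = 0.0032). These genes were picked among calls whose groups were apart in both sets, and for SESN2 and DDIT3 the gap was wider in set 1. SARS1, the cytosolic seryl-tRNA synthetase, stood at 347 and 349 CPM with siCtrl against 281 and 276 with siUSP15 in set 1, and 304 and 296 against 272 and 263 in set 2 (log2 fold change -0.24, standard error 0.0371, adjusted p = 0.0032).

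ATF4 itself did not pass. ATF4 stood at 229 and 222 CPM with siCtrl against 216 and 220 with siUSP15 in set 1, and 286 and 289 against 288 and 271 in set 2 (log2 fold change -0.05, standard error 0.0316, adjusted p = 0.344), and its groups overlapped in set 2. Among the kinases upstream, EIF2AK3 (PERK) was at -0.02 (adjusted p = 0.859). EIF2AK1, the heme-regulated kinase, fell by 0.21, and EIF2AK2, activated by double-stranded RNA, rose by 0.13. The kinase EIF2AK4 did not pass (-0.11, adjusted p = 0.18 from edgeR), with -0.22 in set 1 and 0.01 in set 2. ATF3, a transcription factor, fell from 21.2 and 18.7 CPM with siCtrl to 12.8 and 11.6 with siUSP15 in set 1 and from 29.1 and 31.2 to 24.3 and 23.5 in set 2 (log2 fold change -0.51, standard error 0.0818, adjusted p = 0.00394), and GDF15, a secreted stress cytokine, by 0.49. CARS1, WARS1, MARS1 and GARS1, also tRNA synthetases, fell by 0.20, 0.19, 0.12 and 0.10, and ASNS, which makes asparagine, fell by 0.21. STC2, a secreted glycoprotein, rose by 0.20. Of the 21 calls, TRIB3, SESN2, DDIT3, SARS1, ATF3, GDF15 and EIF2AK1 passed whichever library was left out. With siCtrl replicate 2 left out 7 of the list were lower, with siCtrl replicate 1 or siUSP15 replicate 1 left out 9, and with the replicate numbers as a block 10.

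Of 31 genes of the unfolded protein response tested, 11 were higher and 2 lower (35.5% higher, against 6.88% of all genes), with a median of 0.03. PDIA4, a disulfide isomerase of the ER, stood at 233 and 240 CPM with siCtrl against 305 and 310 with siUSP15 in set 1, and 270 and 267 against 303 and 291 in set 2 (log2 fold change 0.26, standard error 0.0454, adjusted p = 0.00544). HYOU1, a large chaperone of the HSP70 family, rose from 284 and 282 CPM with siCtrl to 353 and 346 with siUSP15 in set 1 and from 335 and 337 to 365 and 360 in set 2 (log2 fold change 0.21, standard error 0.0401, adjusted p = 0.00833). In both genes, picked among calls whose groups were apart in each set, the step was smaller in set 2. HSPA5 (BiP), the main ER chaperone, went from 489 and 500 CPM with siCtrl to 567 and 568 with siUSP15 in set 1 and from 565 and 553 to 602 and 588 in set 2 (log2 fold change 0.14, standard error 0.032, adjusted p = 0.0138). MANF, CRELD2, SDF2L1, CANX, HSP90B1, PDIA6 and CALR, all of ER protein folding, rose by 0.27, 0.35, 0.17, 0.18, 0.12, 0.11 and 0.11, as did the protease MBTPS1 by 0.16. The sensors ERN1 (IRE1, -0.0058) and ATF6 (0.0063) did not pass, nor did the transcription factor XBP1 (0.04, adjusted p = 0.498 from edgeR). The 2 genes that fell were MBTPS2 and SEL1L. MBTPS2, which cleaves ATF6 in the Golgi, stood at 36.2 and 37.9 CPM with siCtrl against 29.6 and 26.7 with siUSP15 in set 1, and 28.9 and 26.3 against 21.6 and 25.3 in set 2, and SEL1L, of the degradation machinery, fell by 0.20. Both lost their call without siCtrl replicate 2. Without that library 2 of the list were higher, PDIA4 and HYOU1. The count was 3 without siCtrl replicate 1 or siUSP15 replicate 1, 6 without siUSP15 replicate 2, 7 without siCtrl replicate 4 or siUSP15 replicate 3, and 5 with the replicate numbers as a block.

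**Figure D2:**
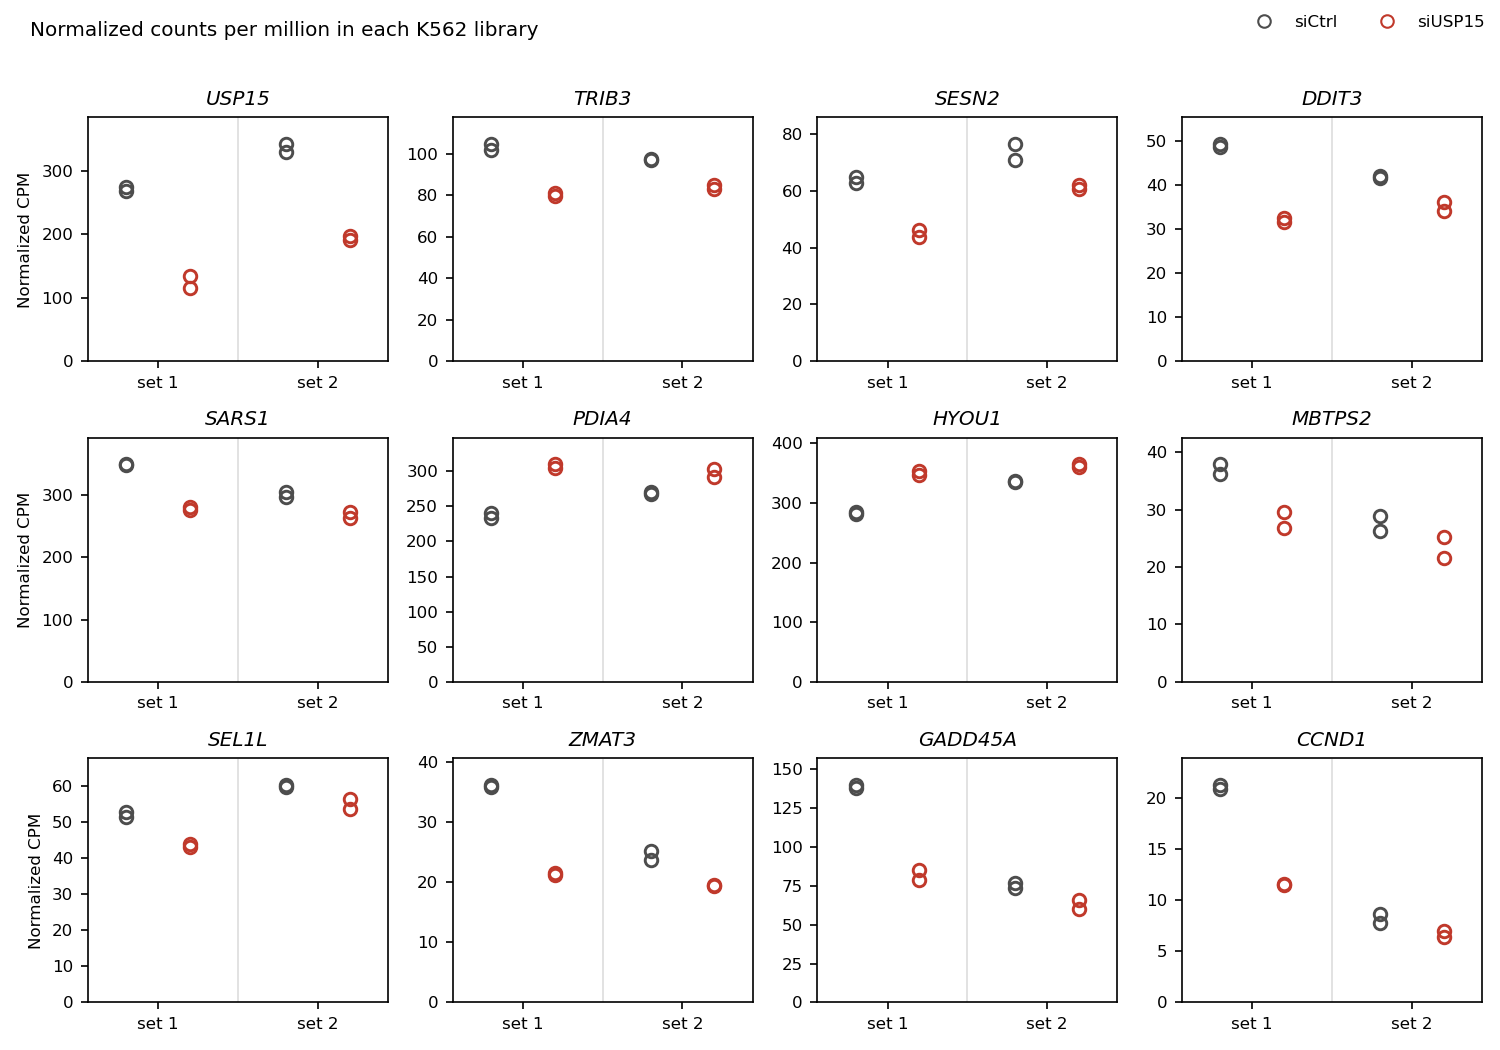
Normalized CPM of USP15, 4 integrated stress response genes, 4 unfolded protein response genes and 3 genes of the p53 target and growth arrest list in each K562 library, siCtrl in gray and siUSP15 in red, with set 1 left and set 2 right in each panel and every vertical axis starting at 0. In all 12 panels the siUSP15 libraries of a set lie on 1 side of its siCtrl libraries, above them for PDIA4 and HYOU1 and below them for the rest. The stress genes were picked among calls with this separation, so in them it follows from the choice.

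The promoters of members of these programs are shown because ATF4 and the ER stress factors bind short elements close to the transcription start. Windows from 250 bases before to 50 after the start were taken from RefSeq (GRCh38.p14), for 16 of the 19 integrated stress response genes that fell and for all 11 unfolded protein response genes that rose, and 9992 of the 13731 genes tested had one. The amino acid response element was searched on both strands as TGATGNAA, and the ER stress element as CCAAT and CCACG with any 9 bases between them. The free bases of the ER stress element could hold the other element. The ER stress element was in 6 of 11 genes that rose and in 2 of 15 that were not called (ERO1B and XBP1), against 0.15% of all genes tested with a window. The amino acid response element was in 6 of 16 genes that fell and in 7 of 20 that were not called, against 2.52%. The shares in genes that fell and in those not called were thus close for the amino acid response element, and neither was tested. A match is a description of letters and no evidence of binding. Capitals mark the element on either strand, and each window is written 5′ to 3′ on the strand of the gene.
HSPA5, chr9:125241294-125241593, minus strand: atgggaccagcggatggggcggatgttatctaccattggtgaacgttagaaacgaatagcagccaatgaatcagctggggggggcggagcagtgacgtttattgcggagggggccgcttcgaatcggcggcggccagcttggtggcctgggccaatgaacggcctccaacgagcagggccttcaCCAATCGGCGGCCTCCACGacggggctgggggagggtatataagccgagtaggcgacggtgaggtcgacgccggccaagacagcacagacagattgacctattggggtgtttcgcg
HSP90B1, chr12:103930160-103930459, plus strand: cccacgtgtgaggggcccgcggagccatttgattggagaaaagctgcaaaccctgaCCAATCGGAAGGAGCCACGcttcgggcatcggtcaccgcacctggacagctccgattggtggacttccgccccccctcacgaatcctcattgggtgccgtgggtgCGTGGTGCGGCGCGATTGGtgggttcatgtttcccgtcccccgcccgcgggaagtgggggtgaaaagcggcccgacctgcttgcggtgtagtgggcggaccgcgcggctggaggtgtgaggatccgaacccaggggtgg
CRELD2, chr22:49918384-49918683, plus strand: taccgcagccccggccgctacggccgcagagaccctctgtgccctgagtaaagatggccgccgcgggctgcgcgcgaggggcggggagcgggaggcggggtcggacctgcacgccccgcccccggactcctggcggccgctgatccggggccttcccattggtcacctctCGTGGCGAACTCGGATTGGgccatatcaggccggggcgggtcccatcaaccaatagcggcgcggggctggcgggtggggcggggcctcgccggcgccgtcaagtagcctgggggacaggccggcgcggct
CALR, chr19:12938359-12938658, plus strand: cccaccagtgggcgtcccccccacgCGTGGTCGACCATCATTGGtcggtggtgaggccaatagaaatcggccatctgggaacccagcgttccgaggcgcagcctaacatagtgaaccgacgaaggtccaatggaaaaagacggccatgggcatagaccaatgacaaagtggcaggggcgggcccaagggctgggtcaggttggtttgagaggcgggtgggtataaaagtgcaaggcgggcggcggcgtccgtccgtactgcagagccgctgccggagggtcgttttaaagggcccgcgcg
PDIA6, chr2:10812736-10813035, minus strand: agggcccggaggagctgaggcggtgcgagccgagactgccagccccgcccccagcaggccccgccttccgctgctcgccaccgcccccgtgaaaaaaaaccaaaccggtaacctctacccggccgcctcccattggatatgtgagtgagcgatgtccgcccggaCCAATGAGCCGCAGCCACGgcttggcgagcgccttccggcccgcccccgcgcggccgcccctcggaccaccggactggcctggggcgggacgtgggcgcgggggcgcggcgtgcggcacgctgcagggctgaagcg
ASNS, chr7:97872359-97872658, minus strand: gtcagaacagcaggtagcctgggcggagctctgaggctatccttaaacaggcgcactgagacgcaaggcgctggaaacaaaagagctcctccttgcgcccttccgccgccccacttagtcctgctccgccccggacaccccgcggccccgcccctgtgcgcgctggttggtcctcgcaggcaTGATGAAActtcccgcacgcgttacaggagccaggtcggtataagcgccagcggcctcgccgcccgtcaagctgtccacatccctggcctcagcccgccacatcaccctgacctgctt
ATF3, chr1:212565157-212565456, plus strand: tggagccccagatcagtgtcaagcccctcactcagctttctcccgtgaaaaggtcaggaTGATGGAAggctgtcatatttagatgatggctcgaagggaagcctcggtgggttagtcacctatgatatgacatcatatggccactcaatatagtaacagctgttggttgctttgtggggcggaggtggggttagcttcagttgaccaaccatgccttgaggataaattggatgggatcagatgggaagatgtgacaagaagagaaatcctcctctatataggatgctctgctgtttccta
CEBPG, chr19:33373863-33374162, plus strand: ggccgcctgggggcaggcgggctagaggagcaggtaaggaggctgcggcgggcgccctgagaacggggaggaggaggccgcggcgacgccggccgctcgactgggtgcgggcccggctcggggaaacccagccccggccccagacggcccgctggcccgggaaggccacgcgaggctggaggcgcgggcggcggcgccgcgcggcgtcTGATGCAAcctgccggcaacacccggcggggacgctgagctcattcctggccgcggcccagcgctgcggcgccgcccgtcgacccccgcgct
HSP90B1 held the ER stress element 2 times, once on each strand. In HSPA5 the element started 66 bases before the transcription start, and in ASNS the amino acid response element started 68 bases before it. CEBPG, the partner of ATF4 on such elements, fell by 0.17, a call lost without siCtrl replicate 2.

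Some genes that p53 is known to raise fell in this line without functional p53. Of 31 such genes and other growth arrest genes tested, 9 fell and 1 rose (29.0% lower, against 8.9% of all genes), and the median was -0.13. Counts of p53 target genes below are of this whole list, CCND1 among them. ZMAT3, a splicing regulator, stood at 36.2 and 35.8 CPM with siCtrl against 21.1 and 21.5 with siUSP15 in set 1, and 23.6 and 25.2 against 19.3 and 19.5 in set 2 (log2 fold change -0.55, standard error 0.0774, adjusted p = 0.00256). GADD45A, a growth arrest gene that ATF4 and FOXO factors also raise, went from 140 and 138 CPM with siCtrl to 85 and 78.8 with siUSP15 in set 1 and from 76.9 and 73.7 to 60.1 and 65.6 in set 2 (log2 fold change -0.52, standard error 0.0848, adjusted p = 0.00401). CCND1, the cyclin of early G1 listed with the growth arrest genes, went from 21.3 and 20.9 CPM with siCtrl to 11.5 and 11.6 with siUSP15 in set 1 and from 7.76 and 8.64 to 6.97 and 6.37 in set 2 (log2 fold change -0.63, standard error 0.106, adjusted p = 0.00458). These genes, picked among calls whose groups were apart in each set, had the wider step in set 1. BTG2, which slows proliferation, fell by 0.25 (-0.26 in set 1 and -0.23 in set 2). DDB2 and XPC of nucleotide excision repair fell by 0.50 and 0.19, the death receptor TNFRSF10B by 0.36, BBC3 (PUMA) by 0.30 and RRM2B by 0.22, and TRIAP1 rose by 0.22. CDKN1A (p21), the arrest gene most often used as a readout of p53, had 18.6 and 17.1 CPM with siCtrl against 13.9 and 13.9 with siUSP15 in set 1, and 10.7 and 12.8 against 13 and 11.1 in set 2, with overlap in set 2 (adjusted p = 0.227 from edgeR). ZMAT3, GADD45A, CCND1 and BTG2 passed whichever library was left out, and 4 genes of the list were lower without siCtrl replicate 2.

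Sensors and checkpoint genes of the DNA damage response fell at a share close to that of all genes. Of 52 tested, 5 were lower (9.62%, against 8.9% of all genes), and the median was -0.01. The count of higher members was 0 in edgeR, 1 in DESeq2 and 0 in limma-voom, and 7 had an unadjusted p under 0.05 in edgeR. RAD17, which loads the checkpoint clamp, went from 74.6 and 78.9 CPM with siCtrl to 62.3 and 60.3 with siUSP15 in set 1 and from 68.9 and 64.7 to 60.6 and 58.6 in set 2 (log2 fold change -0.25, standard error 0.0452, adjusted p = 0.00669). RAD17 was picked among calls without overlap in either set, and it passed whichever library was left out. RPA2, of the complex that coats single-stranded DNA, fell by 0.17 and CDC25C, a phosphatase that starts mitosis, by 0.31, and both calls were lost without siCtrl replicate 2. CDC25B fell by 0.16, and 3 of the 5 calls were lost without siCtrl replicate 2. ATM, the kinase that answers double-strand breaks, stood at 65 and 62.1 CPM with siCtrl against 69.1 and 62.5 with siUSP15 in set 1, and 65.4 and 71.4 against 76.6 and 92.8 in set 2 (adjusted p = 0.106 from edgeR).

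FOXO targets and autophagy genes, which act when growth signals or nutrients run low, were another group with many members lower. Of 37 tested, 10 were lower and 2 higher (27% lower, against 8.9% of all genes), and the median was -0.16, the lowest of the 12 lists. GABARAPL1, an ATG8 protein of the autophagosome, stood at 37 and 35.5 CPM with siCtrl against 21.5 and 19.7 with siUSP15 in set 1, and 24.4 and 22.5 against 19.4 and 17.6 in set 2 (log2 fold change -0.59, standard error 0.0897, adjusted p = 0.00316). MAP1LC3B (LC3B), of the same family, went from 131 and 130 CPM with siCtrl to 109 and 110 with siUSP15 in set 1 and from 154 and 153 to 137 and 140 in set 2 (log2 fold change -0.20, standard error 0.0337, adjusted p = 0.00438). ATG9A, which supplies membrane, rose from 90.7 and 92 CPM with siCtrl to 111 and 111 with siUSP15 in set 1 and from 83.4 and 83.6 to 94.5 and 89.3 in set 2 (log2 fold change 0.21, standard error 0.0388, adjusted p = 0.00719). These 3, picked among calls without overlap in either set, passed whichever library was left out. CCNG2, an unusual cyclin of resting cells, fell by 0.72, a call lost without siCtrl replicate 2, and PIK3IP1, an inhibitor of PI3K, fell by 0.84, a call lost in 4 of the 8 fits without a library. Further genes of the list that fell were SESN3 by 0.42, TXNIP by 0.34, ARRDC3 by 0.34 and ARRDC4 by 0.31, and BCL2L11 (BIM) rose by 0.22. FOXO1 (-0.23, adjusted p = 0.231 from edgeR) and FOXO3 (-0.12, adjusted p = 0.0964 from edgeR) did not pass. Of the 12 calls, 6 were kept with the replicate numbers as a block and 9 were lost without siCtrl replicate 2.

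Among immediate early genes and feedback genes, which follow MAPK activity, those that passed were mostly lower. Of 43 tested, 10 fell and 1 rose (23.3% lower, against 8.9% of all genes), with a median of -0.07. EGR1, a zinc finger factor, stood at 121 and 122 CPM with siCtrl against 102 and 94.1 with siUSP15 in set 1, and 99.4 and 108 against 72.4 and 83.1 in set 2 (log2 fold change -0.36, standard error 0.0508, adjusted p = 0.00262). JUN, a subunit of AP-1, went from 37.3 and 37.6 CPM with siCtrl to 30.4 and 32.9 with siUSP15 in set 1 and from 58.7 and 61.1 to 50.4 and 50.4 in set 2 (log2 fold change -0.24, standard error 0.0399, adjusted p = 0.00427). MCL1, a short-lived protein that protects from apoptosis, fell from 406 and 414 CPM with siCtrl to 355 and 349 with siUSP15 in set 1 and from 396 and 399 to 354 and 352 in set 2 (log2 fold change -0.20, standard error 0.0287, adjusted p = 0.00274). In these genes the interaction of set and siRNA did not pass: EGR1 had -0.31 in set 1 and -0.41 in set 2, and JUN -0.23 in set 1 and -0.25 in set 2. ETV4 and ETV5, ETS factors that report MAPK output, fell by 0.27 and 0.22, and ZFP36L1, which degrades RNA with AU-rich elements, rose by 0.30. EGR1, JUN, MCL1, ETV4, ETV5 and ZFP36L1 passed whichever library was left out, and with the replicate numbers as a block 9 of the 11 calls were kept.

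Of 38 hypoxia genes tested, 6 fell and 2 rose (15.8% lower, against 8.9% of all genes), with a median of -0.02, and HIF1A was at -0.04 (adjusted p = 0.493 from edgeR). SLC2A3, a glucose transporter, stood at 307 and 309 CPM with siCtrl against 240 and 209 with siUSP15 in set 1, and 135 and 139 against 114 and 117 in set 2 (log2 fold change -0.36, standard error 0.0518, adjusted p = 0.00274). AK4, a mitochondrial adenylate kinase, PDK1, which holds back pyruvate oxidation, and EGLN3, an oxygen-dependent hydroxylase of HIF, fell by 0.33, 0.29 and 0.35. All 4, picked among calls apart in both sets, passed whichever library was left out. PFKFB3 rose by 0.23, a call lost without siCtrl replicate 2. Of the 8 calls, 5 were kept with the replicate numbers as a block and 4 were lost without siCtrl replicate 2.

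Of 29 heat shock genes, 4 rose and 3 fell (13.8% and 10.3%, against 6.88% and 8.9% of all genes). SERPINH1, a collagen chaperone of the ER, stood at 103 and 102 CPM with siCtrl against 154 and 152 with siUSP15 in set 1, and 101 and 102 against 115 and 117 in set 2 (log2 fold change 0.39, standard error 0.0631, adjusted p = 0.00394). HSPB1, a small heat shock protein, went from 166 and 158 CPM with siCtrl to 236 and 240 with siUSP15 in set 1 and from 175 and 186 to 206 and 207 in set 2 (log2 fold change 0.37, standard error 0.063, adjusted p = 0.0048). Both, picked among calls whose groups were apart in each set, had the wider step in set 1. DNAJB6 rose by 0.22 and HSPA4L fell by 0.16, calls lost without siCtrl replicate 2, and HSF1 was at 0.05 (adjusted p = 0.361 from edgeR). HSPA6, an inducible HSP70 whose reads may be shared with its copy HSPA7, stood at 5.72 and 5.71 CPM with siCtrl against 2.18 and 2.3 with siUSP15 in set 1, and 0.741 and 0.998 against 0.835 and 0.467 in set 2, low throughout and with overlap in set 2 (adjusted p = 0.00554 from edgeR). Of the 7 heat shock calls, 4 were kept with the replicate numbers as a block, HSPA4L not among them. Of 36 genes of oxidative stress, 4 rose and 4 fell (11.1% each way). For both lists the lower share lay close to that of all genes, and the higher share lay above the 6.88% of all genes. The groups were apart in each set for 13.8% of the heat shock genes and 38.9% of the oxidative stress genes, against 25.6% of all genes. NQO1, a quinone reductase and classical NRF2 target, rose from 73.9 and 75.9 CPM with siCtrl to 107 and 110 with siUSP15 in set 1 and from 116 and 115 to 135 and 129 in set 2 (log2 fold change 0.36, standard error 0.0598, adjusted p = 0.00447). TXNRD1, thioredoxin reductase and another target, fell from 363 and 346 CPM with siCtrl to 273 and 289 with siUSP15 in set 1 and from 484 and 467 to 413 and 410 in set 2 (log2 fold change -0.27, standard error 0.0377, adjusted p = 0.00247). Both were picked among calls without overlap in either set. NFE2L2 (NRF2) rose by 0.13, a call lost in 6 of 8 fits without a library and with the replicate numbers as a block. BACH1, a repressor of NRF2 targets, fell by 0.21, a call lost in 3 of these 8 fits and with that block. Of the 8 oxidative stress calls, 3 were kept with it and 6 were lost without siCtrl replicate 2.

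Regulators that protect from apoptosis and regulators that promote it were among those that fell. Of 33 tested, 6 fell and 2 rose (18.2% lower, against 8.9% of all genes), with a median of 0.00. BCL2L1 (BCL-XL), which protects cells, stood at 213 and 214 CPM with siCtrl against 187 and 180 with siUSP15 in set 1, and 149 and 146 against 136 and 135 in set 2 (log2 fold change -0.17, standard error 0.0331, adjusted p = 0.00817), and its call was lost without siCtrl replicate 2. BMF, which promotes death, had 5.08 and 4.42 CPM with siCtrl against 1.89 and 1.89 with siUSP15 in set 1, and 2.07 and 1.46 against 0.871 and 1.57 in set 2, apart in set 1 and overlapping in set 2 (log2 fold change -1.04, standard error 0.203, adjusted p = 0.00854). APAF1, of the apoptosome, fell by 0.33, a call lost without siCtrl replicate 2. Of the 8 calls 7 were lost without that library, and 5 were kept with the replicate numbers as a block. Among 7 metal stress genes, the factor MTF1 rose by 0.18 and the metallothionein MT2A by 0.70 (28.6% higher, against 6.88% of all genes). Neither call held with the replicate numbers as a block. MT2A, at 1.35 to 3.7 CPM, lost its call in 5 of the 8 fits without a library, and MTF1 in 4. Metallothionein genes are close copies of each other, so reads of MT2A are uncertain. Among 22 genes of RNA sensing and interferon, SAMD9, an antiviral protein, went from 14.6 and 15.7 CPM with siCtrl to 32.5 and 28.2 with siUSP15 in set 1 and from 15.6 and 13.7 to 21.7 and 22.7 in set 2 (log2 fold change 0.80, standard error 0.088, adjusted p = 0.00104). DTX3L, a ubiquitin ligase that works with PARP9 at DNA breaks, went from 19.6 and 20.6 CPM with siCtrl to 26.1 and 25.5 with siUSP15 in set 1 and from 17.7 and 18.2 to 22.3 and 22.4 in set 2 (log2 fold change 0.34, standard error 0.0489, adjusted p = 0.00274). These were the 2 of the list that passed (9.09% higher, against 6.88% of all genes), both whichever library was left out.

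**Figure D3:**
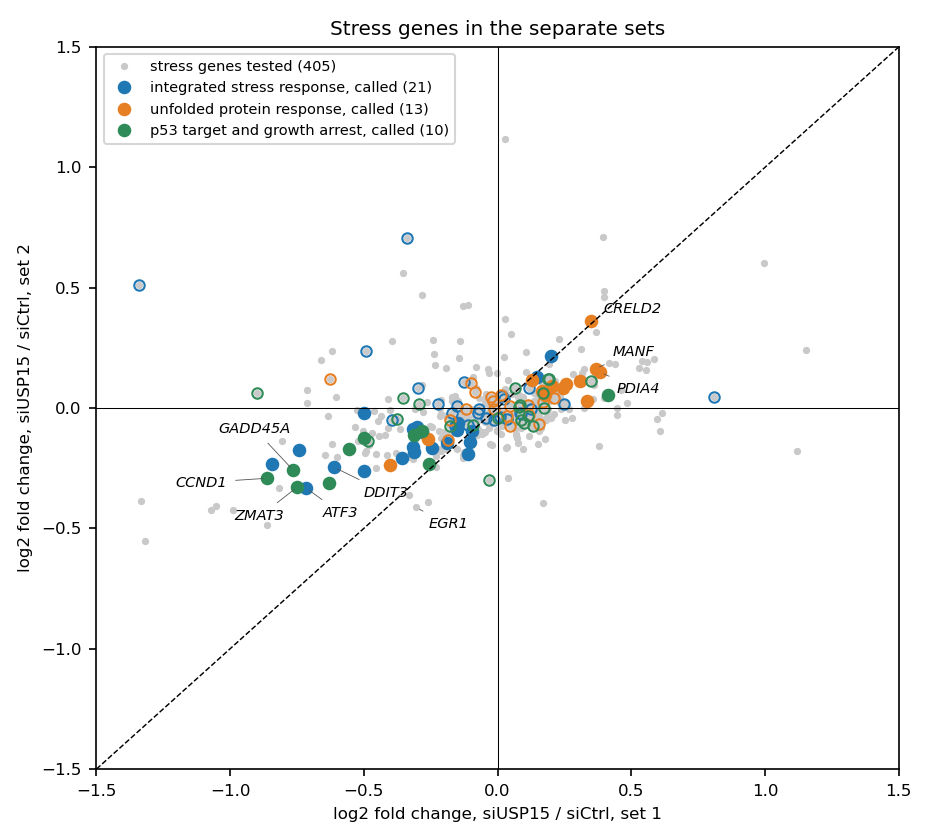
Log2 fold change of siUSP15 against siCtrl in set 1 (horizontal) and in set 2 (vertical), each set fitted alone, for the 405 stress genes tested. Filled colored points passed an adjusted p under 0.05 in the blocked fit, open ones did not, gray points are the other stress genes, and the dashed line marks equal changes. The called genes lie at lower left and upper right, a placing that calling with the sets as a block favors. Of all 107 stress genes called, 95 had the larger change in set 1.

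The stress genes called moved alike in sign, which calling with the sets as a block favors, but not in size. Over the 107, the median absolute log2 fold change was 0.356 in set 1 and 0.163 in set 2, and 95 were larger in set 1, as were 1917 of all 2167 genes called. For the integrated stress response genes that fell the medians were 0.313 and 0.163, for the unfolded protein response genes that rose 0.257 and 0.0979, and for the p53 target genes that fell 0.555 and 0.231. USP15 fell further in set 1 too, and whether its depth of knockdown bears on the sizes was not tested. The interaction of set and siRNA passed for 85 of the 405 stress genes, against 1784 of all genes tested (13.0%). Fitted alone in edgeR, set 1 gave 24 of 46 integrated stress response genes as lower, where 17.1% of all genes were, and 13 of 31 unfolded protein response genes as higher, where 17.0% were. Set 2 alone gave 4 of the 46 as lower, where 0.969% of all genes were, and 0 of the 31 as higher, where 1.03% were, with 7 of the 31 higher at an unadjusted p under 0.05.

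**Figure D4:**
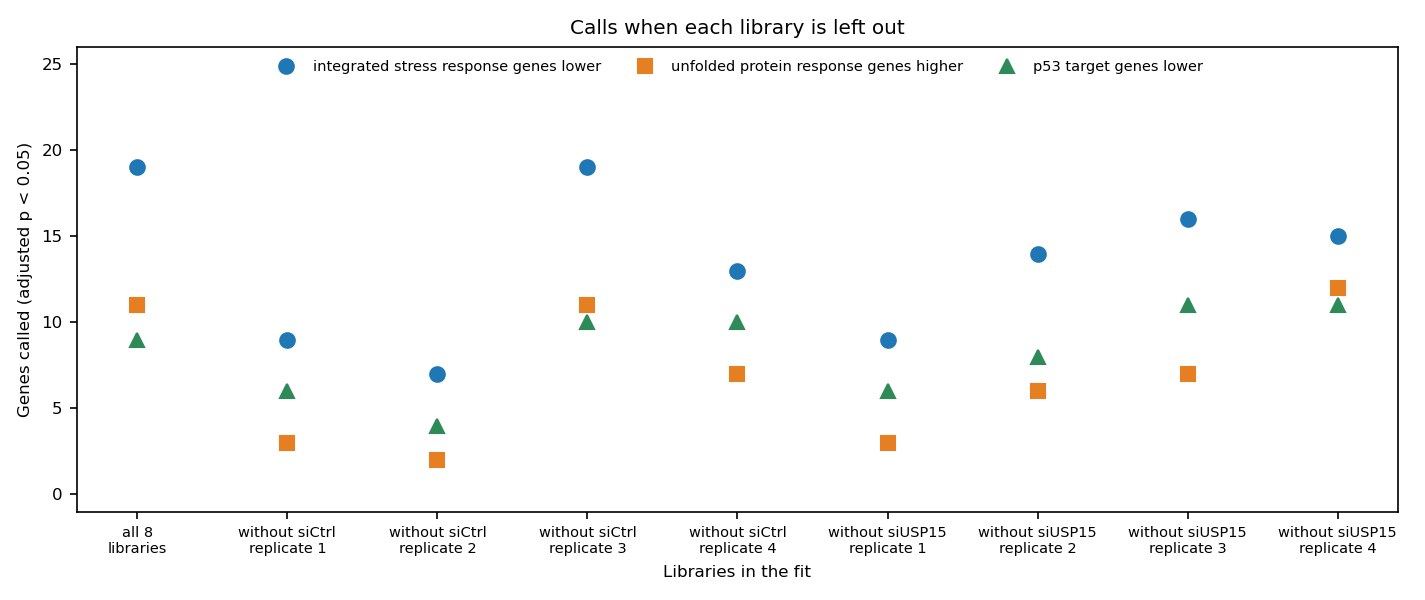
Number of genes with an adjusted p under 0.05 in edgeR with the sets as a block, for all 8 libraries and with each library left out, in 3 groups of stress genes. The counts are lowest without siCtrl replicate 2, at 7 integrated stress response genes lower, 2 unfolded protein response genes higher and 4 p53 target and growth arrest genes lower.

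The 8 largest increases and the 8 largest decreases by the rule for named genes held no stress gene. CALB1, a calcium buffer, rose from 27.3 and 21.8 CPM with siCtrl to 53.6 and 44.9 with siUSP15 in set 1 and from 9.12 and 11.7 to 24.8 and 20.7 in set 2 (log2 fold change 1.05, standard error 0.0991, adjusted p = 0.000461). Where a gene averaged 1 log2 CPM or more and its groups were apart in each set, other large increases were CRB2 (1.59), GS1-600G8.3 (1.35), ACSS1 (1.14), ZIK1 (0.96), ENSG00000270127 (0.94) and the antisense RNA NPPA-AS1 (0.93). GS1-600G8.3 lost its call in 4 of the 8 fits without a library, and its log2 fold change was 0.82 without siUSP15 replicate 4. ZIK1 lost its call without siCtrl replicate 1 or siCtrl replicate 2. The trypsinogen PRSS2 went from 5.63 and 6.04 CPM with siCtrl to 0.658 and 0.684 with siUSP15 in set 1 and from 3.39 and 2.42 to 0.799 and 0.722 in set 2 (log2 fold change -2.61, standard error 0.223, adjusted p = 0.00034), with reads that may be shared with close copies. The receptor subunit IL10RA fell from 8.09 and 6.71 CPM with siCtrl to 1.48 and 1.21 with siUSP15 in set 1 and from 0.975 and 1.31 to 0.545 and 0.807 in set 2 (log2 fold change -2.02, standard error 0.274, adjusted p = 0.0022). The other large decreases were TMEM156 (-1.23), the protein C receptor PROCR (-1.22), the methyltransferase NNMT (-1.13), AIF1 (-1.11), DCHS2 (-1.08) and the adaptor FYB1 (-0.98). FYB1 lost its call without siCtrl replicate 2. DCHS2 lost its call in 4 of the 8 fits without a library, in DESeq2 and with the replicate numbers as a block. Its log2 fold change in set 2 alone was -0.08. The siCtrl libraries of set 1 stood above those of set 2 in all of the 8 decreases.

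The erythroid and leukemia markers of K562 were present in all libraries, from EPOR at 23.5 to 36.7 CPM up to TFRC at 1220 to 1930. All 15 were tested, and 1 passed as higher (TFRC, the transferrin receptor, by 0.20) and 1 as lower. These are 6.67% each way, against 6.88% higher and 8.9% lower of all genes. For markers of other blood cells the siRNAs were apart in set 1: the summed level of 8 lymphoid markers was 60.6 to 63.4 CPM with siCtrl and 38.1 to 46.5 with siUSP15, and in set 2 22.1 to 22.5 and 23.2 to 23.8. The sum of 10 neutrophil and monocyte markers was 25.3 to 29.1 and 17.4 to 20.4 in set 1, and 9.87 to 11.6 and 10.5 to 11.3 in set 2. Most of these sums came from PTPRC, CD3D and LYZ, while MPO, CD14 and S100A8 were at most at 0.762 CPM, and PTPRC (-0.32, adjusted p = 0.0825), CD3D (-0.24, adjusted p = 0.228) and LYZ (-0.33, adjusted p = 0.0752) did not pass in edgeR with the sets blocked. Fitted alone, set 1 gave all 3 lymphoid markers tested and 1 of 2 neutrophil and monocyte markers as lower, with PTPRC at -0.61 (adjusted p = 5.8e-05), LYZ at -0.57 (adjusted p = 0.000594) and CD3D at -0.42 (adjusted p = 0.0146), and in set 2 alone these 3 were at 0.07, 0.0038 and 0.09. Epithelial and stromal markers summed to 86.1 to 101 CPM, nearly all from EPCAM. The share of counts from mitochondrially encoded genes was 4.83% and 4.98% with siCtrl and 5.13% and 5.43% with siUSP15 in set 1, and 3.2% to 3.27% in set 2. Of 13 mitochondrially encoded genes tested, MT-ND1, MT-ND6 and MT-CYB rose, by 0.38, 0.42 and 0.23 (23.1% higher, against 6.88% of all genes). The part of these measures in the stress results was not tested, and fewer cells of a kind cannot be told apart from less RNA per cell in such bulk libraries.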

How the data were processed

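Total RNA of 8 K562 libraries was analysed, 4 per group. The authors deposited raw counts per gene for each library, made with TopHat2 2.1.0 on hg38. For counting, HTSeq stands in the submitters' processing notes and Itreecount in the paper. The authors' log2 values, fold changes and p-values were not used. Of 28328 gene identifiers, 97.3% were found in a GRCh38 name table. Total counts were 23020401 to 43566543, and no libraries were copies of each other.

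Genes were filtered with filterByExpr by group, scaled by TMM and tested 2-sided with edgeR 4.0.16 in R 4.3.3, with set and siRNA in the model and an adjusted p under 0.05. Standard errors are the log2 fold change divided by the root of F. The interaction of set and siRNA was tested in a second model. Each set was also fitted alone. Alternatives were RLE size factors, no filter, DESeq2 1.42.0, limma-voom (limma 3.58.1), no block, the replicate numbers as a block, each library left out and an adjusted p under 0.01. Where a library is left out, the lone library of its group and set is assumed to vary like the others. Same-numbered libraries deviated together from the group means (r of 0.55 to 0.695 in 4 pairs), which comes from the sets, as r was 0.00697 and 0.0865 from the means of group and set. Counts were also simulated over 13731 genes with 200 changed, drawn independently and with the same response in both sets. Of changes of 0.5 on the log2 scale 76% were recovered, of changes of 1 91%, and 5.11% of calls were false. In the data 2167 genes were called and the interaction passed for 1784, so these rates describe the simulated setting and may not hold here.

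The gene lists and the members named were chosen with earlier results of these data known. Named were USP15 and genes of the study, the 8 largest increases and decreases among calls averaging 1 log2 CPM or more whose groups were apart in each set, up to 4 members per list by lowest p, and 15 regulators. The members per list were taken first from calls whose groups were apart in each set. Other members given by name were chosen after their values were seen. Some genes that meet these rules are not reported here. Promoters were read with Python 3.11.15.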

Additional observations from a re-analysis of the deposited data

Results flagged for a closer look

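The siUSP15 libraries of CCNG2, at 3.04, 2.94, 2.94 and 4.25 CPM, held 1 library far from the other 3: its gap was 0.922 of their range, above Dixon's limit for 4 values. Chance passes this limit in about 1 in 20 groups.

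For 24 of the named genes that were called, the response differed between the sets in edgeR's test of the interaction of set and siRNA. As log2 fold change in set 2 minus that in set 1, the difference was 0.32 for USP15. Among stress genes that fell it was 0.24 for SESN2, 0.37 for DDIT3, 0.24 for BACH1, 0.42 for ZMAT3, 0.51 for GADD45A, 0.57 for CCND1, 0.49 for GABARAPL1, 0.27 for AK4 and 0.32 for EGLN3. Among stress genes that rose it was -0.23 for PDIA4, -0.20 for HYOU1, -0.38 for SERPINH1, -0.36 for HSPB1, -0.20 for DNAJB6 and -0.34 for NQO1. Among the largest changes it was -1.19 for ACSS1, -1.20 for ZIK1, 1.18 for PRSS2, 1.72 for IL10RA, 1.17 for TMEM156, 1.17 for PROCR, 1.61 for DCHS2 and 0.96 for FYB1. Each of these differences is a smaller change in set 2.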

How the results depend on the processing

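RLE size factors, no filter, DESeq2 and limma-voom left the direction and the side of the threshold of USP15 and moved no count named here by over 1.5 times, except that 1502 genes were higher without the filter and that the interaction passed for 1099 genes in DESeq2 against 1784. Without a block 0 genes passed, 0 stress genes, 0 integrated stress response genes, 0 unfolded protein response genes and 0 p53 target genes among them, and USP15 had a log2 fold change of -0.93, short of the threshold. With the replicate numbers as a block, 1022 genes passed, 62 stress genes, 10 integrated stress response genes lower, 5 unfolded protein response genes higher and 7 p53 target genes lower, and USP15 was at -0.96. This block takes 2 more degrees of freedom from the fit than the sets do. At an adjusted p under 0.01 the counts were 518 genes, 39 stress genes, 7, 2 and 4 in the same order, and 521 for the interaction. Set 1 alone gave 4685 genes with 14 p53 target genes lower. Set 2 alone gave 275 genes, 4 integrated stress response genes lower, 0 unfolded protein response genes higher and 2 p53 target genes lower. With each library left out, all genes called ranged from 547 to 2635 and stress genes called from 36 to 118. Integrated stress response genes lower ranged from 7 to 19, unfolded protein response genes higher from 2 to 12 and p53 target genes lower from 4 to 11. The log2 fold change of USP15 ranged from -1.0 to -0.88. Stress genes without overlap were 151 to 197, but leaving out a library can only keep or raise their count of 145. Over 76 other named genes and 16 alternatives, 0 changed direction with a call, 156 values lost the threshold and 6 gained it. The causes were not tested. The counts for single lists were chosen after the data were seen. The depth of the libraries limits low genes such as HSPA6 and CCNG2.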

Other observations

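Of the 29 heat shock genes tested, 15 were higher and 3 lower in set 1 fitted alone, where 17.0% and 17.1% of all genes were, and 2 were higher in set 2 alone, where 1.03% were. The interaction of set and siRNA passed for 11 of the 29, against 13.0% of all genes tested. Of these, 4 chosen after their values were seen were higher in set 1 alone and did not pass in set 2 alone. HSPA8, the constitutive HSP70, stood at 2580 and 2780 CPM with siCtrl against 3540 and 3730 with siUSP15 in set 1, and 3960 and 3940 against 3950 and 3770 in set 2 (interaction adjusted p = 0.000113 from edgeR). HSPH1, DNAJA1 and HSP90AB1, which work with it, had log2 fold changes of 0.28, 0.32 and 0.16 in set 1 and of -0.04, -0.00026 and -0.05 in set 2. EPAS1, the hypoxia factor HIF2A, passed in both sets with opposite signs, at 64.4 and 57.9 CPM with siCtrl against 52.4 and 50.9 with siUSP15 in set 1, and 37.6 and 40.7 against 48.7 and 46.4 in set 2. It was the 1 stress gene to do so, chosen after its values were seen. Of the 405 stress genes, 64.9% had the same sign in both sets, against 60.3% of all genes tested.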
